A study of Homo sapiens with 4 samples.

Results

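The genes described here encode the numbered subunits of the proteasome, the particle that degrades ubiquitin-tagged proteins, in Huh7 and Hep3B cells with and without ATO. They were chosen by symbol, as all genes named PSMA, PSMB, PSMC or PSMD with a number. The gene table named 39 such genes, and 34 of them, out of 19775 genes in all, were measured by a probe set that names 1 gene. PSMA6, PSMB11, PSMC5, PSMD7 and PSMD13 were not analysed here. Huh7 and Hep3B are established human hepatocellular carcinoma lines, and 4 profiles were made with the U133 Plus 2.0 array of Affymetrix. In each line 1 profile came from cells given 3 μM ATO, an arsenic compound, for 7 days, and 1 from DMSO-treated negative control cells. The labels name no genetic change or sorting of the cells, and do not say how many cultures stood behind a profile. RNA came from whole cultures, so a difference in every cell and a difference in the share of some cells cannot be told apart. The values were intensities on a linear scale, 1 per probe set, and a ratio was the intensity with ATO over that of the negative control in the same line. Each condition was profiled once in a line, so the ratios of a line carry no error, and a mean over the lines is given with the SD between the 2 lines. Each gene was read from its brightest probe set. Beyond that choice, intensities of different probe sets were compared only to tell dim genes from bright ones.

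The 20S core of the proteasome is a barrel of rings. The outer alpha rings (PSMA genes) gate the entrance, and the inner beta rings (PSMB genes) hold the catalytic sites. The 19S regulatory particle sits on the ends of the barrel. Its base contains the ATPases that unfold substrates (PSMC genes) and its lid removes the ubiquitin chain (PSMD genes). In cells exposed to interferon-gamma, the replacement subunits PSMB8, PSMB9 and PSMB10 take the place of PSMB5, PSMB6 and PSMB7 and form the immunoproteasome, which produces peptides for MHC class I. When proteasomes are impaired, the transcription factor NFE2L1 is known to raise the subunit genes together through antioxidant response elements in their promoters.

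Column medians of all probe sets lay between 15.8 and 16.3, and the median gene had a mean intensity of 50.5. Of the 34 members, 31 were at or above that median gene, and PSMA8, PSMB8 and PSMB9 were below it. Over all genes the median log2 ratio was 0.01 for Huh7 and 0.04 for Hep3B. Across the 19775 genes, the median intensity of the ATO array exceeded that of its negative control by 0.02 (log2) in Huh7 and 0.09 in Hep3B. The 24 probe sets for poly-A control transcripts had median log2 ratios of -0.28 (Huh7) and -0.23 (Hep3B), and the 18 for hybridization controls 0.07 and 0.10. Centring each array on its median over the genes, as an alternative, is called median centring below, and the part of the control transcripts' shifts in the ratios was not tested. The hepatocyte products AFP, GPC3, TTR and ALB, of which AFP and ALB are known to be made by Huh7 cells, were far dimmer in the profiles labelled Huh7 than in those labelled Hep3B. AFP was at 91.8 in the negative control and 62.1 with ATO in Huh7, against 3566 and 1646 in Hep3B. ALB was at 155 and 358, against 12803 and 10730. Among the other markers of the liver list, APOA1, APOA2, APOB and FGB were above the median gene in all 4 profiles. The 3 leukocyte markers lay between 6.15 and 22.0, and the 6 endothelial and fibroblast markers between 4.36 and 76.4. The ratios of the members are given for each line apart, so those of Hep3B stand without the profiles labelled Huh7, whereas counts in both lines, means over the lines and limma use all 4 profiles.

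With ATO, the subunit genes had slightly higher intensities in Hep3B and hardly different ones in Huh7. Their median log2 ratio was 0.22 in Hep3B and 0.03 in Huh7, against 0.04 and 0.01 over all genes. The ratio was above 1 for 28 of the 34 members in Hep3B, against 56.0% of all genes, and for 21 members in Huh7, against 51.1%. It was above 1 in both lines for 20 members (32.0% of all genes) and below 1 in both lines for 5 members (24.7%), namely PSMA2, PSMA4, PSMC3, PSMC6 and PSMD5. The remaining 9 members differed in direction between the lines. After median centring, 16 members were higher and 8 lower in both lines, while over all genes the counts turned from 6332 higher and 4887 lower to 4660 higher and 6536 lower. The members' median log2 ratio became 0.13 in Hep3B and 0.01 in Huh7, and that of all genes -0.05 and -0.01. Most members are bright on these arrays. Among the 560 genes at least as bright as the median member, whose intensity was 1769, the median log2 ratio was 0.00 in Hep3B and -0.03 in Huh7. In that class 11 of the 17 members were higher in both lines, against 24.3% of its genes.

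**Figure D1:**
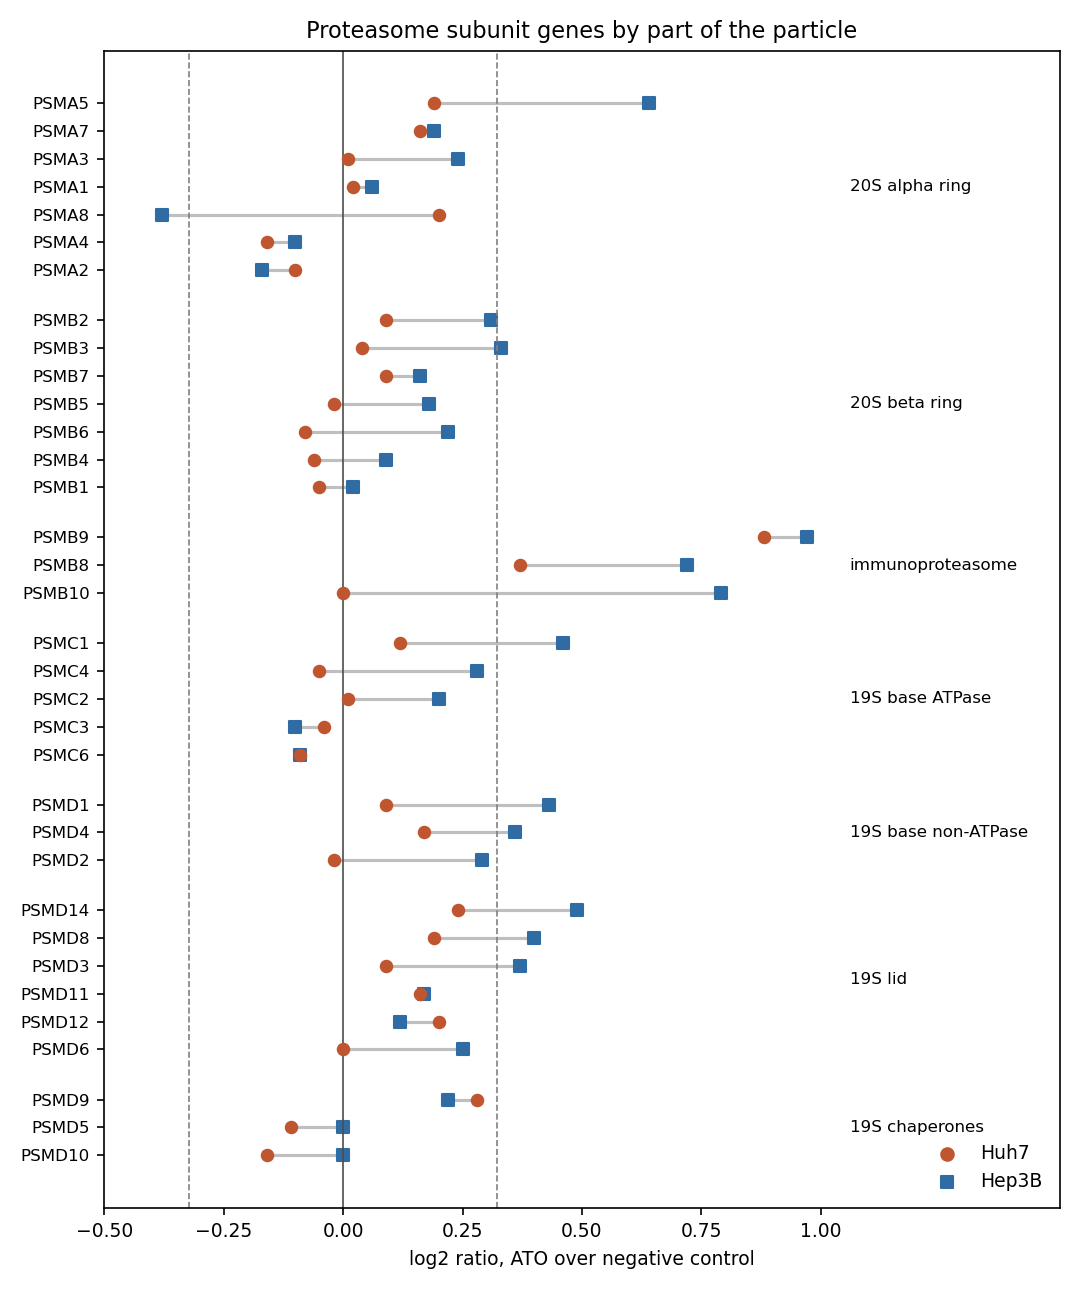
Log2 ratio of ATO over negative control (x axis) for each of the 34 measured proteasome subunit genes (y axis, grouped by part of the particle), with circles for Huh7 and squares for Hep3B, 1 profile per condition and line. Dashed lines mark values 25% above and 20% below the negative control. Of the squares, 28 lie above 0 (25 after median centring), and PSMB9 is the only gene with both points beyond 0.58 on this scale, the log2 of a ratio of 1.5.

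The differences were small. With ATO, 11 members were more than 25% above the negative control in Hep3B (16.4% of all genes) and 2 members in Huh7 (12.4%). In Hep3B these were PSMA5, PSMB3, PSMB8, PSMB9, PSMB10, PSMC1, PSMD1, PSMD3, PSMD4, PSMD8 and PSMD14. In Huh7 they were PSMB8 and PSMB9, which were also the members past this limit in both lines (2 members, 3.41% of all genes). More than 20% below the negative control lay 1 member in Hep3B (11.5%), the dim PSMA8, 0 members in Huh7 (11.7%) and 0 members in both lines (2.97%). With the ratio limits of 1.5 and 0.67, PSMB9 alone was above in both lines (1 member, 0.804% of all genes) and 0 members were below (0.587%). In Hep3B alone, 4 members were past 1.5 (5.04% of all genes), namely PSMA5, PSMB8, PSMB9 and PSMB10. In the brighter class, 4 of the 17 members were more than 25% above the negative control in Hep3B, against 8.04%. No member was past the 25% and 20% limits in opposite directions in the 2 lines (0 members, 2.50% of all genes).

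**Figure D2:**
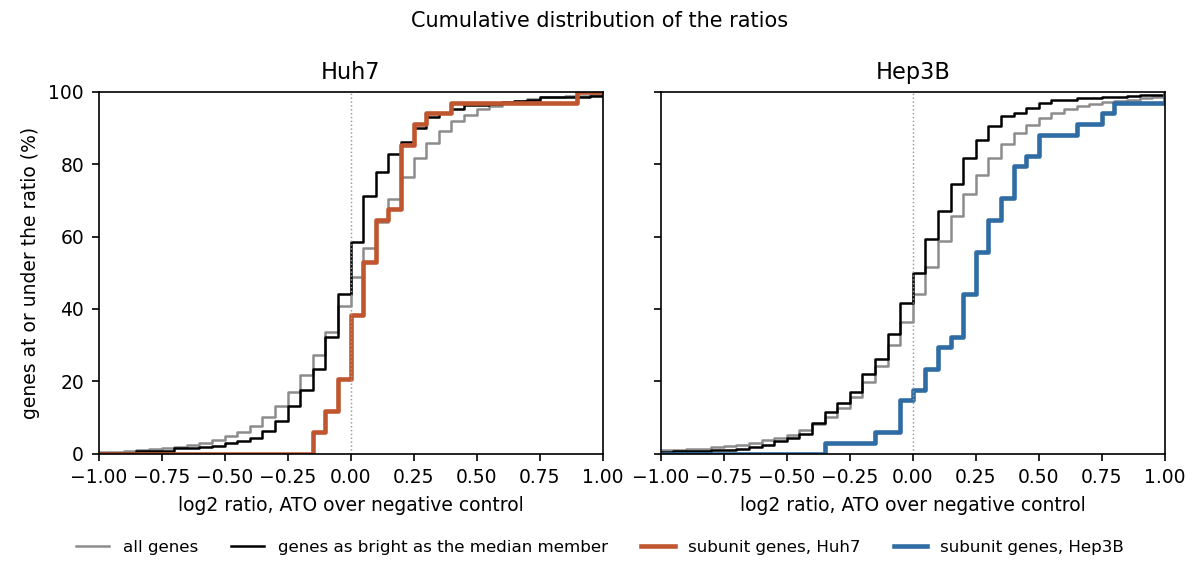
Cumulative share of genes (y axis, %) at or under a given log2 ratio of ATO over negative control (x axis) in Huh7 (left) and Hep3B (right), for all 19775 genes (grey), the 560 genes at least as bright as the median member (black) and the 34 subunit genes (coloured). At a log2 ratio of 0.20, the curve of the subunit genes stands at 44.1% in Hep3B, where that of all genes stands at 71.9%, and at 85.3% in Huh7, where that of all genes stands at 76.6%.

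In Hep3B the immunoproteasome subunits had the 3 highest ratios of all members, and in Huh7 PSMB9 and PSMB8 had the 2 highest, but PSMB9 and PSMB8 were dim. PSMB9, the replacement for the caspase-like subunit PSMB6, had an intensity of 11.7 in the negative control and 21.5 with ATO in Huh7. In Hep3B it had 7.07 and 13.9. Its ratios were 1.84 and 1.96, with a mean log2 ratio of 0.93 ± 0.07 (SD, n = 2 lines). PSMB8, the replacement for the chymotrypsin-like subunit PSMB5, was at 7.72 in the negative control and 9.97 with ATO in Huh7, and at 7.70 and 12.7 in Hep3B. The ratios of PSMB8 were 1.29 and 1.65. PSMB9 and PSMB8 lay within the range of the 3 leukocyte markers (6.15 to 22.0), whose upper end was CD14. Of the other 2 markers, PTPRC and CD3E, the highest value was 17.1, and PSMB9 with ATO in Huh7 (21.5) lay above it. Neither gene was shown to be above background, so the sizes of their ratios are uncertain. On the scale of log2(intensity + 16), which dampens dim values, their differences were 0.41 and 0.20, the latter below that of PSMA5 (0.41), PSMD14 (0.36) and PSMD8 (0.29). PSMB10, the replacement for the trypsin-like subunit PSMB7, was brighter and differed between the lines. It was at 147 in the negative control and 146 with ATO in Huh7, but at 56.9 and 98.6 in Hep3B. The ratio was 0.997 in Huh7 and 1.73 in Hep3B, so that Hep3B cells with ATO still lay below both Huh7 profiles.

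PSMB8 and PSMB9 lie next to TAP1 and TAP2 in the MHC region, in the order TAP2, PSMB8, TAP1, PSMB9 on chromosome 6, and PSMB9 and TAP1 are known to be transcribed from a shared promoter region. The promoter windows of the 3 replacement subunits are shown because these genes had the largest ratios in Hep3B. Each window runs 5′ to 3′ on the gene's strand, from 250 bases before the annotated start to 50 bases after it, in RefSeq (GRCh38.p14). Capitals mark matches on either strand to TGACNNNGC (antioxidant response element), CCAAT (NF-Y box), GAAANNGAA (interferon-stimulated response element) or TTCNNNGAA (STAT site, a palindrome that matches both strands at once). The windows are chr6:32853942-32854241 on the plus strand for PSMB9, chr6:32843998-32844297 on the minus strand for PSMB8 and chr16:67936801-67937100 on the minus strand for PSMB10.
PSMB9: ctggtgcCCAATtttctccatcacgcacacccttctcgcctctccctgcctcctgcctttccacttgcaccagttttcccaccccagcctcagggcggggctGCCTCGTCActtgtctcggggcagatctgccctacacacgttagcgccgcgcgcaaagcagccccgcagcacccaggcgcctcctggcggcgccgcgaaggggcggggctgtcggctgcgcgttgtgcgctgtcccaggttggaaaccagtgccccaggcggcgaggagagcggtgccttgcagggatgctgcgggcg
PSMB8: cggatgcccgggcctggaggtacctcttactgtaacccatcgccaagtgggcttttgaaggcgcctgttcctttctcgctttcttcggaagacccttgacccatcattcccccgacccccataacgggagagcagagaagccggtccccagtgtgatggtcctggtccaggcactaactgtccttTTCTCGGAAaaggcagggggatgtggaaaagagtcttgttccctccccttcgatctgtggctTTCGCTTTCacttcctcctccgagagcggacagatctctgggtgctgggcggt
PSMB10: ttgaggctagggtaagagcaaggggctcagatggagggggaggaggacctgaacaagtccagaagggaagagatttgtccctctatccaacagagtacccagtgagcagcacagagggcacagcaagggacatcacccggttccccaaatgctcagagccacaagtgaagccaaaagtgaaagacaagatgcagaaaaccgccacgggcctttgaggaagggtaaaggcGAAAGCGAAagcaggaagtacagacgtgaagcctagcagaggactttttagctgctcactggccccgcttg
The PSMB9 window held the antioxidant response element at position -148 and the NF-Y box at position -243, counted to the first base of the match from the start. The PSMB8 window held the STAT site at -65 and the interferon-stimulated response element at -3. A second RefSeq window of PSMB8, from another start, held none of the 4 motifs. The PSMB10 window held the interferon-stimulated response element at -21.

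**Figure D3:**
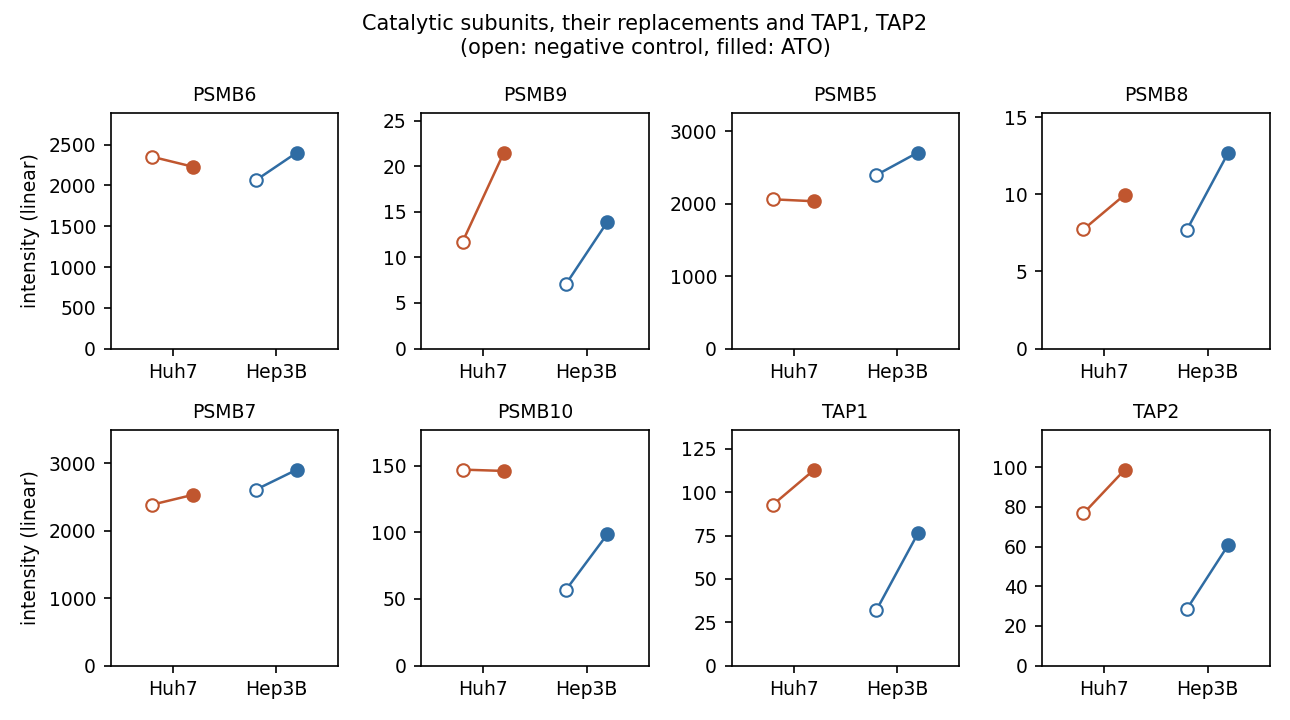
Intensity on a linear scale (y axis, from 0, each panel with its own range) in the negative control (open circles) and with ATO (filled circles) for Huh7 and Hep3B, in the catalytic subunits PSMB5, PSMB6 and PSMB7, their replacements PSMB8, PSMB9 and PSMB10, and the neighbouring genes TAP1 and TAP2, 1 profile per point. The lines of PSMB9, PSMB8, TAP1 and TAP2 slope upward in both cell lines, whereas PSMB10 slopes upward only in Hep3B (56.9 to 98.6), and the 3 constitutive catalytic subunits differ by ratios between 0.947 and 1.17.

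The constitutive catalytic subunits differed less. PSMB5, the chymotrypsin-like subunit, was at 2060 in the negative control and 2033 with ATO in Huh7, and at 2396 and 2706 in Hep3B. PSMB6, the caspase-like subunit, was at 2352 and 2228 in Huh7 and at 2061 and 2404 in Hep3B. PSMB7, the trypsin-like subunit, was at 2387 and 2535 in Huh7 and at 2607 and 2907 in Hep3B. The ratios of PSMB5 and PSMB6 were thus just under 1 in Huh7 (0.987 and 0.947) and above 1 in Hep3B (1.13 and 1.17), and those of PSMB7 were 1.06 and 1.12. A second, dim probe set of PSMB7 had ratios of 1.18 and 0.640. Of the 7 constitutive beta ring genes, 7 were higher in Hep3B (56.0% of all genes) and 3 in Huh7 (51.1%). Their median log2 ratio was 0.18 in Hep3B and -0.02 in Huh7.

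Within the beta ring, by the brightest probe sets, the structural subunits PSMB2 and PSMB3 had the highest mean ratios and PSMB1 and PSMB4 the lowest. This order depended on the probe sets. With probe sets averaged, mean log2 ratios were 0.04 for PSMB2 instead of 0.20, and 0.08 for PSMB1 instead of -0.01. PSMB3 kept 0.18, PSMB4 was at 0.03 and PSMB7 was lowest at -0.04. These averages include dim probe sets, at mean intensities of 5.33 for PSMB1, 24.0 and 6.1 for PSMB2 and 28.6 for PSMB7. Another bright probe set of PSMB1 had ratios of 0.995 (Huh7) and 1.01 (Hep3B). A second PSMB2 probe set, above the median gene, had ratios of 0.95 (Huh7) and 0.941 (Hep3B). Other PSMB4 probe sets gave 1.03 and 0.872 in Huh7, and 1.18 and 1.04 in Hep3B. PSMB2 was at 1804 in the negative control and 1918 with ATO in Huh7, and at 2112 and 2610 in Hep3B. PSMB3 was at 2817 and 2888 in Huh7, and at 2504 and 3144 in Hep3B. In Hep3B these are ratios of 1.24 and 1.26, while in Huh7 they were 1.06 and 1.03. PSMB1 was at 5381 and 5211 in Huh7 and at 5390 and 5456 in Hep3B, where its log2 ratio of 0.02 became -0.07 after median centring. PSMB4 was at 4272 and 4100 in Huh7 and at 5443 and 5801 in Hep3B. The 4 profiles of PSMB1 lay within a narrow range, and those of PSMB4 differed more between the lines than with ATO.

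The alpha ring was mixed. Of its 7 measured genes, 4 were higher in both lines (32.0% of all genes) and 2 lower in both (24.7%). The median log2 ratios were 0.02 (Huh7) and 0.06 (Hep3B). After median centring they were -0.00 and -0.03, against -0.01 and -0.05 over all genes. With the probe sets prone to cross-hybridization left out, the median in Hep3B was -0.10, against 0.04 over all genes. PSMA5 stood apart from the other alpha subunits. It was at 4009 in the negative control and 4557 with ATO in Huh7, and at 1149 and 1795 in Hep3B, ratios of 1.14 and 1.56. Of all genes, 95.9% had a lower ratio than PSMA5 in Hep3B. A second probe set of PSMA5, dimmer than the median gene, had ratios of 0.618 and 0.955, so that the mean over both probe sets was 0.02 (log2) instead of 0.41. PSMA7 was at 3089 and 3453 in Huh7 and at 2371 and 2704 in Hep3B, and the log2 ratios of 0.16 and 0.19 differed by no more than 0.03. PSMA7 was read from a probe set of the kind prone to cross-hybridization, and its other probe set gave 1.13 in Huh7 and 0.915 in Hep3B. The lowest mean ratios were those of PSMA2 and PSMA4. PSMA2 was at 4337 and 4043 in Huh7 and at 4617 and 4098 in Hep3B, ratios of 0.932 and 0.887. PSMA4 was at 3056 and 2725 in Huh7 and at 2165 and 2021 in Hep3B, ratios of 0.892 and 0.933. Both were lower with ATO in each line. Median centring lowers every ratio of these arrays, so it could not move them above 1. PSMA1 and PSMA3 had ratios of 1.02 and 1.01 in Huh7 and 1.04 and 1.18 in Hep3B, of which both in Huh7 and that of PSMA1 in Hep3B moved below 1 after median centring. PSMA8, an alpha subunit of the testis, lay between 3.47 and 4.52 in all 4 profiles, near the lowest values of the arrays (2.24).

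The PSMA5 promoter window, chr1:109426399-109426698 on the minus strand (GRCh38.p14), is shown because PSMA5 had the largest ratio in Hep3B among the constitutive subunits of the core. Capitals mark its matches, 2 NF-Y boxes at positions -83 and -54.
PSMA5: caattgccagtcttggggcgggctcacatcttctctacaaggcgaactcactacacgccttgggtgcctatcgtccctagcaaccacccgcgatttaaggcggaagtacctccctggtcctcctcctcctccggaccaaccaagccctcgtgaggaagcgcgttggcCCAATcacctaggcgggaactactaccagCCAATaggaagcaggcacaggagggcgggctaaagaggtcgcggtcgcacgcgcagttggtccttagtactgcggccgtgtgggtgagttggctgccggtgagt

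In the 19S base, the ATPase genes were mixed and the non-ATPase genes were higher in Hep3B. Of the 5 measured ATPases, 2 were higher (32.0% of all genes) and 2 lower (24.7%) in both lines, with median log2 ratios of -0.04 (Huh7) and 0.20 (Hep3B). PSMC1 was at 1402 in the negative control and 1521 with ATO in Huh7, and at 992 and 1361 in Hep3B, ratios of 1.09 and 1.37. PSMC4 was at 838 and 811 in Huh7 and at 781 and 950 in Hep3B, so that its ratio was above 1 in Hep3B (1.22) only. PSMC3 was at 764 and 742 in Huh7 and at 1058 and 987 in Hep3B. PSMC6 was at 1287 and 1206 in Huh7 and at 1325 and 1241 in Hep3B, a ratio of 0.937 in each line. PSMC1 and PSMC6 belong to the same ATPase ring, and their ratios lay on opposite sides of 1 in both lines. Among the 3 non-ATPase base genes, which include the scaffold subunits PSMD1 and PSMD2 and the ubiquitin receptor PSMD4, the median log2 ratio was 0.09 in Huh7 and 0.36 in Hep3B. PSMD1 had ratios of 1.06 and 1.35, and its second probe set 1.11 and 1.32. PSMD4 had ratios of 1.13 and 1.28, from a probe set prone to cross-hybridization. PSMD2 was at 2047 and 2020 in Huh7 and at 1167 and 1430 in Hep3B, with ratios of 0.987 and 1.23.

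With each gene read from its brightest probe set, the lid was the class whose measured members all pointed the same way in both lines. All 6 measured lid genes were higher with ATO in both lines (32.0% of all genes), with median log2 ratios of 0.18 (Huh7) and 0.31 (Hep3B). After median centring 5 of the 6 remained so (4660 of the 19775 genes), the exception being PSMD6 in Huh7. With probe sets averaged, 5 were higher in both lines (6404 of the 19775 genes), and PSMD12 was at -0.08 (log2) in Huh7. PSMD14, the deubiquitinase that cuts the chain from the substrate, was at 3212 in the negative control and 3781 with ATO in Huh7, and at 2187 and 3079 in Hep3B. The ratios were 1.18 and 1.41, with a mean log2 ratio of 0.36 ± 0.18 (SD, n = 2 lines). PSMD8 was at 1412 and 1609 in Huh7 and at 978 and 1286 in Hep3B, ratios of 1.14 and 1.32. For both genes Hep3B cells with ATO still lay below the Huh7 negative control. PSMD3 had ratios of 1.07 and 1.30, PSMD11 of 1.12 and 1.12, and PSMD12 of 1.15 and 1.09. PSMD6 had the lowest mean ratio of the lid, at 2092 and 2093 in Huh7 and at 1325 and 1576 in Hep3B. The second probe set of PSMD11 gave larger ratios, 1.54 and 2.28, and that of PSMD12 gave 0.785 and 1.11.

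The PSMD14 window, chr2:161308175-161308474 on the plus strand (GRCh38.p14), is shown as the lid gene with the highest mean ratio. Its capitals mark 2 overlapping NF-Y boxes on opposite strands, at positions -48 and -45.
PSMD14: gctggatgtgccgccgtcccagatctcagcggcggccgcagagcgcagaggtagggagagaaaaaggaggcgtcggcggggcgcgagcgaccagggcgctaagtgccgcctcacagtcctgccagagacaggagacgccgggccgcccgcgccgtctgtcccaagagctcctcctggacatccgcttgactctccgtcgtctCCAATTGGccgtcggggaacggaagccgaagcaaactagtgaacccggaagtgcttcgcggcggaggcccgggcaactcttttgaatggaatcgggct

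The 3 PSMD genes that encode assembly chaperones of the 19S base, and no part of the finished particle, had no common direction. PSMD9 was at 709 in the negative control and 860 with ATO in Huh7, and at 551 and 642 in Hep3B, and its log2 ratios of 0.28 and 0.22 were close to each other. A second probe set of PSMD9 gave 0.824 and 1.14. PSMD5 was at 447 and 416 in Huh7 and at 422 and 421 in Hep3B. PSMD10, also known as gankyrin, was at 1557 and 1398 in Huh7 and at 550 and 551 in Hep3B. Its ratio was thus 0.898 in Huh7, while in Hep3B the profiles with and without ATO were nearly equal. A second probe set of PSMD10, at a mean intensity of 560, pointed the other way in Huh7, with ratios of 1.09 (Huh7) and 1.01 (Hep3B).

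The PSMD9 window, chr12:121888540-121888839 on the plus strand (GRCh38.p14), is shown because PSMD9 had the highest mean ratio of the chaperones. It held the antioxidant response element on each strand, at positions -149 and -102, marked in capitals, as did the window of PSMD3 at -37 and 34.
PSMD9: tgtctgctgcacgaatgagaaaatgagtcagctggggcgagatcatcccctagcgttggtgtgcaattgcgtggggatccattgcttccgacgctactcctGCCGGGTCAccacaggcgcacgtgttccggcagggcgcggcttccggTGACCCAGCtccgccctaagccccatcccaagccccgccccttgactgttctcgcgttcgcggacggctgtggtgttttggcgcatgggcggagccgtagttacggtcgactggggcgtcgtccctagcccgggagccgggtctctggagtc

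A test over both lines was made with limma on log2(intensity + 16), in a model of cell line and treatment that left 1 residual degree of freedom. No member, and none of the 19775 genes (0.00%), had an adjusted p under 0.05 after Benjamini-Hochberg correction, and the smallest adjusted p was 0.506. When the prior was given an intensity trend, 9 genes passed, without an offset 8, and with dim genes left out 24, none of them a member. At an unadjusted limma p under 0.05, 4 members were higher, against 5.24% of all genes, and 0 members were lower, against 4.30%. These 4 were PSMB9 (adjusted p = 0.506), PSMD9 (adjusted p = 0.506), PSMD14 (adjusted p = 0.507) and PSMD8 (adjusted p = 0.522). After median centring 2 members were left, PSMB9 and PSMD14, against 9.41% of all genes in either direction. Which members fell under this limit changed with the fit. Without an offset they were PSMB8 and PSMB9 (9.37% of all genes), and with an offset of 64 PSMA7, PSMB9, PSMD9 and PSMD11 (9.64%). With an intensity trend they were PSMA5, PSMB8, PSMB9 and PSMD14 (9.14%). These p-values rest on how far the ATO difference varied between 2 different cell lines, not between repeated cultures. They also rest on a prior of 1.81 degrees of freedom drawn from all genes.

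The lines differed in the subunit genes before ATO. The median log2 ratio of Huh7 over Hep3B was 0.18 with the negative control, where 23 of the 34 members were brighter in Huh7 (54.2% of all genes), and -0.00 with ATO, where 17 were (52.8%). The log2 ratio of ATO over negative control was larger in Hep3B than in Huh7 for 28 members, against 53.7% of all genes. Since both line differences and both ratios are built from the same 4 profiles, this is a description of those profiles and the difference between the lines was not tested. PSMA5 was 3.49 times as bright in Huh7 with the negative control and 2.54 times with ATO. PSMB10 was 2.58 times as bright in Huh7 and 1.48 times with ATO, and PSMD10 2.83 and 2.54 times. PSMD4, in contrast, was at 0.712 and 0.628, brighter in Hep3B. PSMA5, PSMD10 and PSMD4 differed more between the lines than with ATO in either line.

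**Figure D4:**
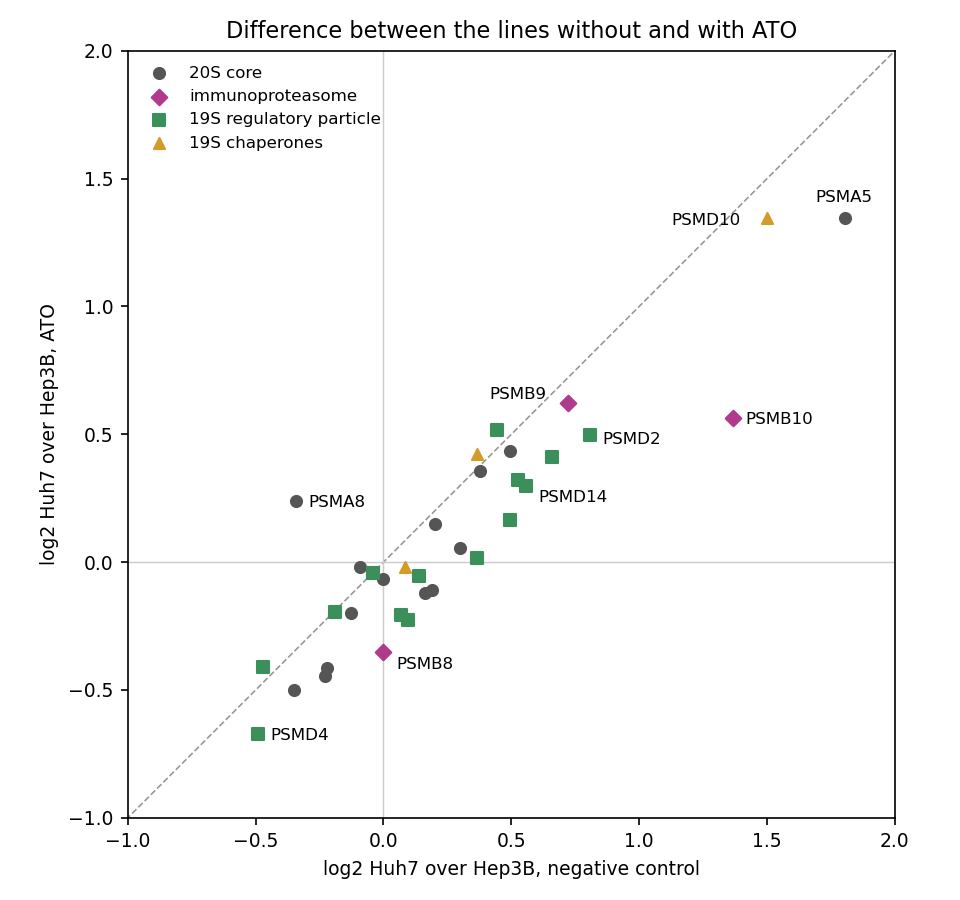
Log2 ratio of Huh7 over Hep3B with the negative control (x axis) and with ATO (y axis) for the 34 subunit genes, coloured by part of the particle, 1 point per gene. Points below the dashed diagonal have a larger ratio of ATO over negative control in Hep3B than in Huh7, which holds for 28 of the 34 genes.

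The direction of a member depended in part on its probe set. The 34 members had 61 probe sets, 16 members having 1 and 18 several. Of the 46 probe sets at or above the median gene, 26 were higher and 7 lower with ATO in both lines, against 31.7% and 27.9% of all 15743 probe sets of that brightness. For the 12 members with more than 1 such probe set, all of a gene's probe sets pointed the same way in Hep3B for 10, in Huh7 for 7 and in both lines for 6. PSMA1, PSMA7 and PSMD4, 3 members in all, were read from probe sets prone to cross-hybridization, whose identifiers end in _x_at.

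In RefSeq, 29 of the 34 members had at least 1 promoter window, 34 windows in all. TGACNNNGC was found in 9 of these (26.5%), against 13.3% of the 35116 windows of all genes. The 9 genes were PSMA4, PSMB3, PSMB9, PSMC4, PSMD1, PSMD3, PSMD5, PSMD9 and PSMD12, which include members with ratios above and below 1. CCAAT was found in 15 windows (44.1%, against 34.6%), GAAANNGAA in 5 (14.7%, against 8.11%) and TTCNNNGAA in 7 (20.6%, against 7.66%). The genes with GAAANNGAA were PSMA4, PSMB4, PSMB8, PSMB10 and PSMC2, so that 2 of the 3 replacement subunits held it and PSMB9 did not. All motifs were searched on both strands. A match describes the letters of the window and no binding was measured.

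Among the other genes of the pathway, TAP1 and TAP2 had the highest ratios in Hep3B. Of the genes that work with the immunoproteasome in antigen presentation, 7 of the 10 measured here were higher in both lines (32.0% of all genes) and 1 lower (24.7%). Their median log2 ratios were 0.16 (Huh7) and 0.55 (Hep3B). TAP1, a subunit of the peptide transporter, was at 92.8 in the negative control and 113 with ATO in Huh7, and at 32.1 and 76.2 in Hep3B. TAP2, the other subunit, was at 76.7 and 98.8 in Huh7 and at 28.6 and 60.9 in Hep3B. TAPBP, which tethers MHC class I to the transporter, was at 376 and 404, and at 143 and 239. As with PSMB10, the ratios of these genes were larger in Hep3B (2.37, 2.13 and 1.67) than in Huh7 (1.22, 1.29 and 1.07), and the Hep3B negative control had the lowest value of the 4 profiles. B2M, the light chain of MHC class I, was in contrast at 0.716 in Hep3B. At an unadjusted limma p under 0.05, 2 of the 10 were higher (5.24% of all genes) and 0 lower (4.30%), and at an adjusted p 0 passed (0.00%).

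Among the 12 measured activators, inhibitors and bound proteins of the proteasome, 7 were higher and 2 lower in both lines, with median log2 ratios of 0.07 (Huh7) and 0.19 (Hep3B). Over all genes the shares were 32.0% higher and 24.7% lower, which also stand beside the counts of the lists that follow. ADRM1, a ubiquitin receptor of the 19S base, was at 522 and 631 in Huh7 and at 368 and 507 in Hep3B, ratios of 1.21 and 1.38. PSME4, the activator PA200, had ratios of 1.09 and 1.35, and PAAF1, an assembly factor of the ATPases, 1.10 and 1.33. At an unadjusted limma p under 0.05 ADRM1 alone was higher (adjusted p = 0.506), against 5.24% of all genes. The 5 assembly chaperones of the 20S core had median log2 ratios of -0.05 (Huh7) and 0.17 (Hep3B), 1 being higher and 1 lower in both lines, and PSMG1 had ratios of 0.938 and 1.36. In the NFE2L1 route, 3 of the 7 measured genes had ratios above 1 in both lines and 1 below, with median log2 ratios of -0.08 (Huh7) and 0.17 (Hep3B). NFE2L1 itself had ratios of 0.925 and 1.17, and NPLOC4, a cofactor of the segregase VCP, was at 396 without and 520 with ATO in Huh7, and at 606 without and 760 with ATO in Hep3B. Among the 8 ubiquitin genes and shuttle receptors 3 were higher and 4 lower in both lines. SQSTM1, the autophagy receptor p62 and a target of oxidative stress signaling, was at 643 and 1074 in Huh7 and at 742 and 967 in Hep3B. Its ratio of 1.67 in Huh7 exceeded those of every measured lid and base gene in that line. In Hep3B its 1.30 lay below those of PSMD14 (1.41), PSMC1 (1.37), PSMD1 (1.35) and PSMD8 (1.32). The shuttle receptor UBQLN2 had ratios of 0.807 and 0.861.

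Complexes built from related subunits gave a comparison. The COP9 signalosome and eIF3, which share their domain architecture with the lid, had median log2 ratios of -0.06 and -0.06 in Huh7 and 0.04 and 0.00 in Hep3B. After median centring the 0.04 of COP9 became -0.05, where the median of all genes in Hep3B was -0.05. In both lines 4 of the 10 COP9 genes were higher and 3 lower, as were 4 and 6 of the 13 eIF3 genes, against 32.0% and 24.7% of all genes. The CCT chaperonin, a ring-shaped folding machine of bright genes, had median log2 ratios of 0.11 (Huh7) and 0.25 (Hep3B), with 4 of 7 genes higher in both lines and 0 lower. These were close to the lid's 0.18 and 0.31. In Hep3B the CCT median was 0.16 after median centring and 0.28 with quantile normalization, where that of the lid was 0.22 and 0.34. With probe sets averaged it was -0.02 in Hep3B against 0.38 for the lid, and 0.10 against 0.14 in Huh7. PSMC3IP, whose symbol resembles the members' but which encodes a recombination factor and no subunit, had ratios of 1.12 and 1.15.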

How the data were processed

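RNA from 4 profiles was hybridized by the authors to Affymetrix U133 Plus 2.0 arrays. The methods name Robust Multi-array Average for preprocessing, followed by a log step and a between-array normalization with the simpleaffy package. The deposited values were intensities on a linear scale, from 2.24 to 14164. How they were returned to a linear scale is not given in the sources used here, nor is the number of arrays behind a column. No detection call was used, and the number of arrays limits the precision.

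Of 54675 probe sets, 41097 named 1 gene and 1801 several, and 11777 had no gene in the annotation. Each of 19775 genes was read from the brightest probe set (mean over the 4 profiles) naming it alone. Samples were grouped by the labels' line and treatment. Ratios were taken within each line, with limits at 1.5 and 0.67, and at 25% above and 20% below the negative control. limma 3.58.1 (R 4.3.3, with the package data.table in version 1.17.8) was fitted to log2(intensity + 16) with cell line and treatment, the prior having 1.81 degrees of freedom, with Benjamini-Hochberg adjustment over all genes at 0.05. The cell line pairs the ATO and negative control profiles. The steps were tested on simulated data. Promoter windows came from RefSeq (GRCh38.p14), and tables and plots were made in Python 3.11.15 with pandas 2.3.3, numpy 2.4.6 and matplotlib 3.10.9. Alternatives were other probe set rules, quantile normalization, median centring, dim genes left out, other offsets, priors and limits, no block, a line left out, and the methods' t-test.

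Given with the value in every profile are the catalytic and replacement subunits and, within each class (the lid and the non-ATPase base taken as 1 class), the 2 members with the highest and the 2 with the lowest mean log2 ratio. Of other lists up to 3 genes with the largest mean log2 ratio were named, with B2M, NFE2L1 and the neighbours on chromosome 6 chosen after their values were seen. The members, lists and tests were chosen with earlier results of these data known, and no list is independent support for a pattern.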

Additional observations from a re-analysis of the deposited data

How the results depend on the processing

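The mean of the 2 lines' median log2 ratios stayed above 0 under every alternative tried for all members (0.13), the 20S core (0.09), the regulatory particle (0.19), the lid (0.24) and the immunoproteasome (0.58), and with a line left out it lay between 0.03 and 0.22, 0.02 and 0.17, 0.09 and 0.29, 0.18 and 0.31, and 0.37 and 0.79. In Huh7 alone, however, the median of the 20S core was -0.01 with probe sets averaged and -0.01 after median centring. That of the immunoproteasome in Huh7 was -0.0 with dim genes left out, where only PSMB10 remained. The immunoproteasome value was 0.25 on the scale of log2(intensity + 16), which dampens its dim genes. Members lower in both lines numbered 8 with each array centred on its median instead of 5, and 6 to 13 with a line left out, when only 1 line has to be lower. Members past 1.5 or 0.67 in both lines, 1 in the report, numbered 0 with dim genes left out, 2 at 25% above or 20% below the negative control, 0 at ratios of 2 and 0.5, and 1 to 4 with a line left out, the 4 being those of Hep3B alone (5.04% of all genes). Members with an unadjusted limma p under 0.05, 4 in the report (9.54% of all genes in either direction), numbered 2 without an offset (9.37%), 2 with each array centred (9.41%), 2 with dim genes left out (12.5%), 6 with probe sets averaged (8.81%), among them PSMA2 at -0.27, 0 with the methods' t-test at 0.01 (0.642%), and 0 with no replicate block (1.69%), where the pairing by cell line is dropped. No member had an adjusted p under 0.05 in any of these fits. With TGANNNNGC in place of TGACNNNGC, 21 member windows held the motif instead of 9 (61.8%, against 41.8% of all windows). Of the values for single members, 29 moved by more than the SD between the lines and 138 did not, PSMA5 and PSMD11 among the former when probe sets were averaged (0.02 and 0.54). With 1 profile per condition and line, dim genes and small ratios could not be set against repeated cultures.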
